A study of Mus musculus with 6 samples.

Results

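The genes described here encode the heat shock chaperones of the cytosol and mitochondria with their main partners, 44 genes picked by symbol from the 54446 genes listed in the deposited comparison of *Fmo5*-/- with wild-type (WT) liver. Every symbol matched 1 row, and all 44 genes passed the filter on low counts that left 16734 genes for testing. By their known regulation and structure they fell into 19 genes inducible by heat shock factor 1 (HSF1), 8 subunits of the CCT ring, 4 subunits of prefoldin and 13 other members. The inducible genes are *Hspa1a*, *Hspa1b*, *Hspa4l*, *Hspa8*, *Hsph1*, *Hsp90aa1*, *Hsp90ab1*, *Dnaja1*, *Dnajb1*, *Dnajb4*, *Hspb1*, *Hspb8*, *Cryab*, *Hspd1*, *Hspe1*, *Bag3*, *Stip1*, *Chordc1* and *Ahsa1*, of which several, among them *Hspa8* and *Hsp90ab1*, are also made at high levels without stress. Livers came from 3 WT C57BL/6J males and 3 *Fmo5*-/- males generated on the same background, all 32 weeks of age, fed standard chow and with no treatment named, and each liver gave 1 library. FMO5, the gene product missing in the knockout, is a flavin-containing monooxygenase that is abundant in liver. The mice of both genotypes were kept in adjacent cages, and the sources used here do not say whether they were littermates. Levels are given as normalized counts, which are the reads on a gene divided by the relative size of the library, and differences as log2 fold changes, *Fmo5*-/- over WT, so that a negative value is a lower level in the knockout.

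Chaperones bind proteins that are not yet folded, or that have lost their fold, and release them through cycles of ATP binding and hydrolysis. HSP70 proteins work with J proteins, which deliver clients and stimulate the ATPase, and with exchange factors such as the HSP110 proteins, which reset it, while HSP90 takes over clients in later stages of folding with the help of co-chaperones. HSF1 is held inactive by chaperones in unstressed cells, and once unfolded proteins draw these away it binds heat shock elements, repeats of a short unit in alternating orientation, in the promoters of its targets. The CCT ring, also called TRiC, folds newly made actin and tubulin handed over by prefoldin, and its subunits are needed in all cells at all times. The liver makes large amounts of protein for secretion and of metabolic enzymes, and its chaperones are abundant without stress.

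Library and tissue checks came first. *Fmo5* had 39808, 37405 and 30239.7 normalized counts in the WT livers and 1071, 1102 and 1194 in the *Fmo5*-/- livers, a log2 fold change of -5.00, so each library carried the genotype of its label. Between 44886286 and 52338675 reads were counted on genes per library. The defining hepatocyte genes *Alb*, *Apoa1*, *Ttr*, *Cps1* and *Hnf4a* were present in every library, with a summed level of 99043 to 128374 CPM (counts scaled to a library of 1000000) in WT and 113256 to 131298 CPM in *Fmo5*-/- liver. Of 6 Kupffer cell markers, all 6 were higher in *Fmo5*-/- liver, 1 passing the edgeR test, 5 the DESeq2 test and 5 without overlap, beside 0.675%, 4.73% and 13.9% of all tested genes, and their summed level was 144 to 173 CPM in WT and 247 to 458 CPM in *Fmo5*-/- liver. Markers of lymphocytes were higher in 5 of 5 cases, 0 by edgeR, 2 by DESeq2 and 4 without overlap, with a sum of 2.58 to 4.07 CPM in WT and 5.52 to 17.9 CPM in *Fmo5*-/- liver. Of 4 neutrophil markers, 2 were abundant enough to be tested, *S100a8* and *S100a9*. Both were higher without overlap, 0 by edgeR and 1 by DESeq2. The neutrophil sum was 0.741 to 2.22 CPM in WT and 2.45 to 5.42 CPM in *Fmo5*-/- liver. No listed marker of any cell type was at 0 in all 6 libraries. Of 4 adipocyte markers, 1 was abundant enough to be tested, the lipid droplet gene *Cidec*, which fell (log2 fold change -1.31, edgeR adjusted p = 0.0228). In whole liver, fewer cells of a type and less RNA per cell cannot be told apart, and the part of these cells in the results below was not tested.

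Most of the chaperone genes had small log2 fold changes below 0, and few passed the test. The value was below 0 for 40 of the 44 genes, beside 49.2% of all tested genes and 64.0% of those with a mean of 500 or more, with a median of -0.25, against a median of 0.0058 over all tested genes and of -0.062 over the 7819 tested genes with a mean of 500 or more, a level that 39 of the 44 reached. By the quasi-likelihood test of edgeR, with Benjamini-Hochberg adjustment over all tested genes, 3 of the 44 fell, *Dnaja1*, *Chordc1* and *Stip1*, beside 0.693% of all tested genes and 1.06% of those with a mean of 500 or more, and 0 rose, beside 0.675%. At an unadjusted edgeR p under 0.05, 23 of the 44 were lower and 0 higher, where 10.2% and 11.6% of all tested genes were, and 17.6% and 7.62% of those with a mean of 500 or more. The Wald test of DESeq2 called 16 of the 44 lower and 0 higher, beside 4.2% and 4.73% of the genes it tested, and it called 6.75% of those with a mean of 500 or more lower. For 24 of the 44 every *Fmo5*-/- liver was below every WT liver, which held for 13.5% of all tested genes and for 21.9% of those with a mean of 500 or more, while the reverse order was seen in 0 of the 44 and 13.9% of all tested genes. Of the 44 genes, 14 had been picked for their test result in these same libraries when the data were first described, and their counts are not independent evidence of a direction. The rest were left over from that choice, so their counts are not independent evidence either. Among the other 30, the median log2 fold change was -0.17, 26 were below 0, edgeR and DESeq2 each called 2 lower, *Dnaja1* and *Chordc1*, and 10 did not overlap between genotypes.

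**Figure D1:**
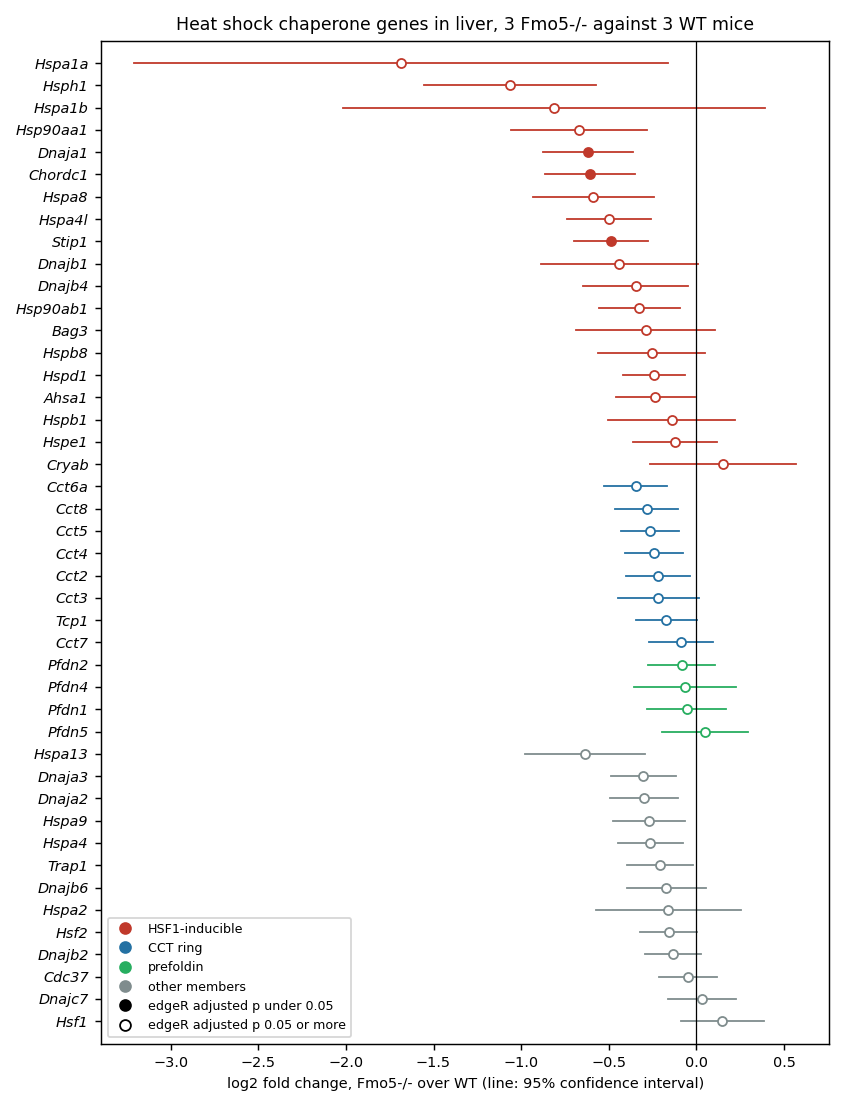
Log2 fold change of each of the 44 chaperone genes, *Fmo5*-/- over WT (x axis), with its 95% confidence interval as a line; genes are coloured by group, and filled points mark an edgeR adjusted p under 0.05. The 3 filled points are *Dnaja1*, *Chordc1* and *Stip1*, all HSF1-inducible, and 40 of the 44 points lie left of 0.

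The levels of the 44 genes spanned a wide range. Per kilobase of exon, the WT mean was 15288 normalized counts for *Hsp90ab1*, the cytosolic HSP90 that is abundant without stress, 5349.7 for *Hspa9*, the HSP70 of mitochondria, 4829 for *Hspd1*, the mitochondrial chaperonin HSP60, and 4605 for *Hspa8*, the cytosolic HSP70 that is abundant without stress. At the other end were the stress-inducible *Hspa1a* at 7.6, *Hspa2*, an HSP70 best known from testis, at 47.6, and *Cryab*, the small heat shock protein αB-crystallin, at 96.9. Summed over the 44, they took 0.466% to 0.533% of the counts in WT livers and 0.409% to 0.456% in *Fmo5*-/- livers.

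Among the HSP70 genes, the exchange factor *Hsph1* (HSP110, ENSMUSG00000029657.15, chr5:149614287-149636376, minus strand of mm10, the build of all gene positions here) had the largest difference of any member with a mean of 500 or more. It had 2769, 3961 and 2127 normalized counts in the WT livers and 1338, 1426 and 1472 in the *Fmo5*-/- livers, a log2 fold change of -1.06 ± 0.21 (SE). The WT values were spread widely with mouse 2 at the top, and the knockout values lay close together below all of them. Its edgeR adjusted p was 0.0585 and its DESeq2 adjusted p 4.03e-06. *Hspa8* (ENSMUSG00000015656.17, chr9:40800984-40810087, plus strand) had 16406, 25090.5 and 17921 in WT and 13232, 12447 and 13816 in *Fmo5*-/- liver, a log2 fold change of -0.59 ± 0.15 (SE) with an edgeR adjusted p of 0.0806 and a DESeq2 adjusted p of 0.00385. WT mouse 2 again stood highest, and the genotypes did not overlap. *Hspa8* has processed copies elsewhere in the genome, so that reads shared with a copy may be missing from its count.

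The other HSP110 genes had smaller differences. *Hspa4l* had 1438, 1598 and 1357 normalized counts in WT and 1173, 1006 and 929.7 in *Fmo5*-/- liver (log2 fold change -0.50, edgeR adjusted p = 0.0554, DESeq2 0.00297). *Hspa4* had 7792, 8364 and 7364 in WT and 6538, 6495 and 6567 in *Fmo5*-/- liver, where the 3 knockout values were nearly equal (log2 fold change -0.26, edgeR adjusted p = 0.113, DESeq2 0.0469). In both genes every knockout liver was below every WT liver. *Hspa13*, an HSP70 relative found with microsomes, had 2164, 2247 and 1561 in WT and 1452, 1124 and 1268 in *Fmo5*-/- liver (log2 fold change -0.64, edgeR adjusted p = 0.0710, DESeq2 0.00258). WT mouse 3 lay nearer to the knockouts than to the other WT mice in this gene, and the genotypes did not overlap. *Hspa2* was at -0.16 with a 95% confidence interval of -0.57 to 0.25.

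The 2 copies of the strictly stress-inducible HSP70 gene were the least stable members. *Hspa1b* (ENSMUSG00000090877.3, chr17:34956436-34959238, minus strand) had 167, 625 and 269.9 normalized counts in the WT livers and 233, 157 and 214 in the *Fmo5*-/- livers. WT mouse 2 was far above the other 5 livers, and WT mouse 1 was below 2 of the knockouts. Its log2 fold change of -0.81 had a 95% confidence interval of -2.02 to 0.39 and an edgeR adjusted p of 0.400, and was -0.12 without WT mouse 2. *Hspa1a* (ENSMUSG00000091971.3, chr17:34969190-34972156, minus strand) was counted at only 6, 36 and 21 reads in WT and 12, 4 and 6 reads in *Fmo5*-/- liver, with a log2 fold change of -1.69 (interval -3.21 to -0.16, edgeR adjusted p = 0.189) that was -1.002 without WT mouse 2. Again mouse 2 was the highest and the genotypes overlapped. Both copies are nearly identical in sequence, and reads that fit both places were not counted, so their levels are uncertain.

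Among the J proteins, *Dnaja1* (ENSMUSG00000028410.13, chr4:40722150-40737149, plus strand), a main partner of cytosolic HSP70, fell by 34.9% in *Fmo5*-/- liver. It had 6716, 7451 and 5729 normalized counts in WT and 3877, 4471 and 4612 in *Fmo5*-/- liver (log2 fold change -0.62 ± 0.11, SE, edgeR adjusted p = 0.0447, DESeq2 1.40e-04). All 3 WT livers were above all 3 knockouts, with the gap between WT mouse 3 and knockout mouse 3 the smallest. *Dnaja2*, its constitutive relative, had 6853, 6412 and 6240.0 in WT and 5653, 4928 and 5256 in *Fmo5*-/- liver (log2 fold change -0.30, edgeR adjusted p = 0.0946, DESeq2 0.0315), also without overlap. *Dnajb1*, the HSP40 that is itself a classical heat shock gene, had 1190.3, 1860.2 and 1279 in WT and 1086, 871 and 1233 in *Fmo5*-/- liver, and *Dnajb4*, a close relative, 1586, 2186 and 1700.3 in WT and 1519, 1254 and 1528 in *Fmo5*-/- liver. Here too WT mouse 2 was the highest, by a wide margin over the other WT mice, and neither gene passed either test (edgeR adjusted p = 0.237 and 0.174). The log2 fold changes of the remaining J proteins, *Dnajb2*, *Dnajb6* and the HSP70 and HSP90 adaptor *Dnajc7*, were -0.13, -0.17 and 0.03, and none passed either test.

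The exchange factor *Bag3*, which pairs with the small heat shock protein *Hspb8* in selective autophagy, had 1266, 1876 and 1244 normalized counts in WT and 1291, 1026 and 1271 in *Fmo5*-/- liver. Without WT mouse 2 its log2 fold change of -0.29 was -0.07, and that of *Hspb8* went from -0.25 to -0.08. The small heat shock protein genes *Hspb1* and *Cryab* were at -0.14 (95% interval -0.50 to 0.22) and 0.15 (-0.27 to 0.57). All 4 genes overlapped between genotypes and none passed the edgeR or the DESeq2 test.

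**Figure D2:**
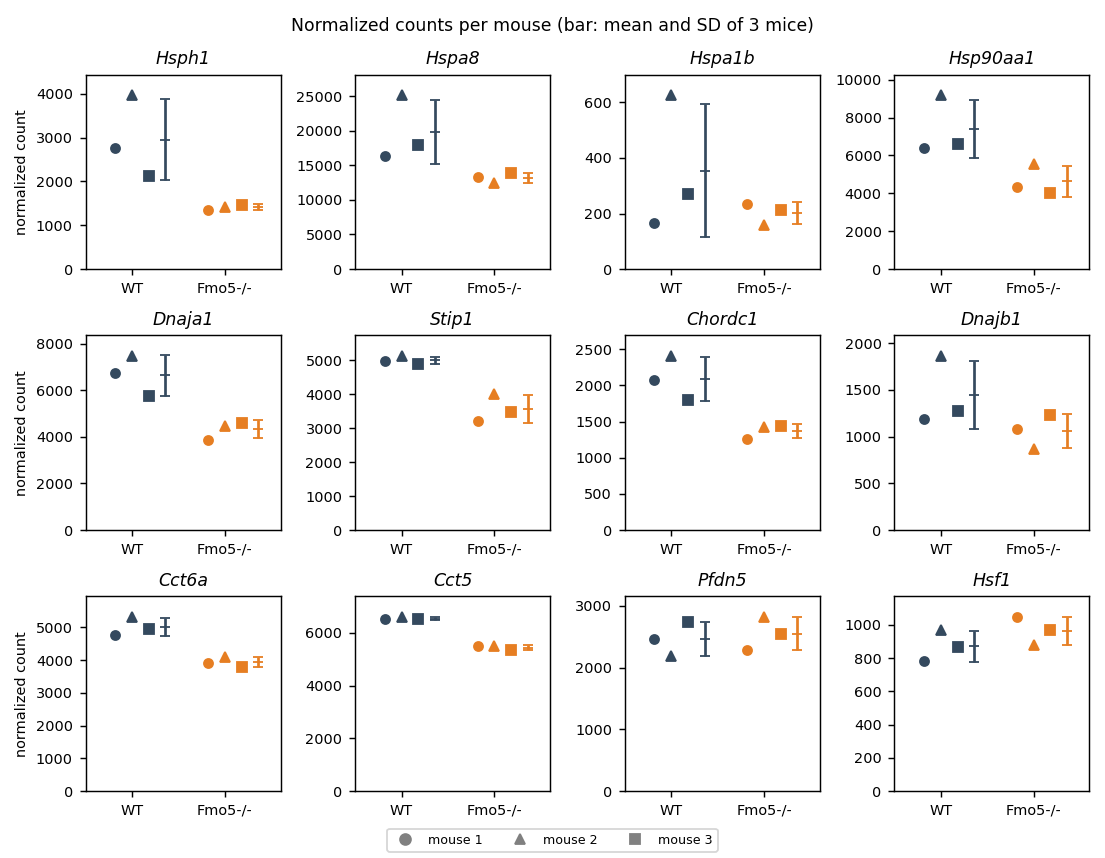
Normalized counts (y axis, from 0) of 12 members in each of the 6 mice, with WT on the left and *Fmo5*-/- on the right of each panel; symbols mark the mouse number within its genotype and bars the mean and SD of 3 mice. WT mouse 2 is far above the others in *Hspa1b* (624.9), *Hspa8* and *Dnajb1*, and lies with the other WT mice in *Stip1* and *Cct5*.

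The HSP90 genes and their co-chaperones included the other 2 genes that fell. *Stip1* (ENSMUSG00000024966.8, chr19:7020702-7039967, minus strand), which encodes the adaptor that holds HSP70 and HSP90 together for client transfer, had 4990.1, 5118 and 4898 normalized counts in WT and 3225, 4013 and 3473 in *Fmo5*-/- liver. It fell by 28.6% (log2 fold change -0.49 ± 0.09, SE, edgeR adjusted p = 0.0468, DESeq2 4.42e-04), and the WT values were the closest together of those of the 3 genes. *Chordc1* (ENSMUSG00000001774.8, chr9:18292125-18317442, plus strand), an HSP90 co-chaperone, fell by 34.3% from 2069, 2401 and 1791 in WT to 1253, 1423 and 1436 in *Fmo5*-/- liver (log2 fold change -0.61 ± 0.11, SE, edgeR adjusted p = 0.0459, DESeq2 4.06e-04). No knockout liver reached the lowest WT liver in either gene. *Hsp90aa1*, the inducible HSP90, had 6378, 9171 and 6618 in WT and 4312, 5556 and 4044 in *Fmo5*-/- liver (log2 fold change -0.67, edgeR adjusted p = 0.0804, DESeq2 0.00159). *Hsp90ab1* had 43190.3, 49947 and 44409 in WT and 36885, 39518 and 33368 in *Fmo5*-/- liver (log2 fold change -0.33, edgeR adjusted p = 0.118, DESeq2 0.0259). In both HSP90 genes WT mouse 2 was the highest and the genotypes did not overlap. *Ahsa1*, which stimulates the HSP90 ATPase, was at -0.23 and *Cdc37*, which brings kinases to HSP90, at -0.05, and neither passed either test.

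The 3 calls were near the threshold. With no filter on low counts edgeR called 15 of the 44 lower, beside 2.62% of all genes in that fit. With each library left out in turn, *Dnaja1* and *Chordc1* were each called in 2 of the 6 fits, those without WT mouse 3 or *Fmo5*-/- mouse 3, and *Stip1* in 1, the fit without *Fmo5*-/- mouse 2, while their log2 fold changes ranged from -0.71 to -0.52, -0.70 to -0.49 and -0.58 to -0.42. The edgeR adjusted p over these fits ranged from 0.0311 to 0.132 for *Dnaja1*, from 0.0349 to 0.132 for *Chordc1* and from 0.0346 to 0.138 for *Stip1*. *Hsph1*, not called with all 6 livers, was called without WT mouse 2 and without WT mouse 3, with a range of 0.0136 to 0.198.

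The mitochondrial chaperones had smaller differences, and none of the 5 passed the edgeR test. *Hspd1* had 12817, 13178 and 12283 normalized counts in WT and 10808, 10861 and 10674 in *Fmo5*-/- liver (log2 fold change -0.24, edgeR adjusted p = 0.125, DESeq2 0.0397). *Hspa9*, which also pulls proteins through the import channel, had 24771, 23094 and 21307 in WT and 19237, 18464 and 19659 in *Fmo5*-/- liver (log2 fold change -0.27, edgeR adjusted p = 0.134, DESeq2 0.0553). *Dnaja3*, its J protein, had 5332, 5518 and 4789 in WT and 4244, 4162 and 4269.7 in *Fmo5*-/- liver (log2 fold change -0.30, edgeR adjusted p = 0.0848, DESeq2 0.0266). In these 3 genes, and in *Trap1*, the mitochondrial HSP90 (log2 fold change -0.21), the genotypes did not overlap. *Hspe1*, the HSP10 lid of HSP60, had a log2 fold change of -0.12 with overlap (edgeR adjusted p = 0.552). *Hspd1* and *Hspe1* start next to each other on opposite strands and overlap there in the annotation, and since the counting did not use strand, reads in the overlap cannot be told apart. In the counts of 1 strand the log2 fold change was -0.04 for *Hspe1* and -0.24 for *Hspd1*.

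The transcription factor genes themselves gave no call. *Hsf1* had 780.5, 969 and 866 normalized counts in WT and 1046, 880.2 and 969 in *Fmo5*-/- liver, a log2 fold change of 0.15 with a 95% confidence interval of -0.09 to 0.38 (edgeR adjusted p = 0.457, DESeq2 0.643). *Hsf2*, its relative, had 1620.3, 1592 and 1512 in WT and 1401, 1428 and 1402 in *Fmo5*-/- liver, a log2 fold change of -0.16 (edgeR adjusted p = 0.237, DESeq2 0.312). The *Hsf1* values overlapped, and the *Hsf2* values did not. Transcript levels do not show the activity of HSF1, which is set after translation.

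The CCT ring subunits had small differences, and none passed the edgeR test. All 8 subunits had log2 fold changes below 0, from -0.35 (*Cct6a*) to -0.09 (*Cct7*), with a median of -0.23, and 6 of the 8 did not overlap between genotypes, beside 21.9% of tested genes with a mean of 500 or more, a level that all 8 reached. By edgeR 0 of the 8 were called, and 5 had an unadjusted p under 0.05, beside 17.6% of such genes. DESeq2 called 3, beside 6.75% of such genes, namely *Cct5*, *Cct6a* and *Cct8*, which belong to the 14 genes picked in these libraries. *Cct6a* had 4779, 5306 and 4948 normalized counts in WT and 3909.7, 4106 and 3801 in *Fmo5*-/- liver (edgeR adjusted p = 0.0640, DESeq2 0.00477). *Cct5* had 6509, 6586 and 6511 in WT and 5482, 5502 and 5336 in *Fmo5*-/- liver (log2 fold change -0.26, edgeR adjusted p = 0.0885, DESeq2 0.0179). The spread within a genotype was small in *Cct5*, and the gap between genotypes was several times wider. *Cct8* had 8327, 8610.1 and 9101 in WT and 7188, 6969 and 7216 in *Fmo5*-/- liver (log2 fold change -0.28, edgeR adjusted p = 0.0891, DESeq2 0.0156). *Cct2*, *Cct3*, *Cct4* and *Tcp1*, the remaining ring subunits, were at -0.22, -0.22, -0.24 and -0.17.

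The 4 prefoldin members gave values near 0. These subunits, *Pfdn1*, *Pfdn2*, *Pfdn4* and *Pfdn5*, had log2 fold changes of -0.06, -0.08, -0.07 and 0.05, with a median of -0.062, and all 4 overlapped between genotypes. None had an edgeR unadjusted p under 0.05 or a call by DESeq2. The widest of their 95% confidence intervals, that of *Pfdn4*, ran from -0.36 to 0.22 and includes the median of the CCT ring, as do those of *Pfdn1* and *Pfdn2*, while that of *Pfdn5* ran from -0.20 to 0.29 and does not.

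Set beside the CCT ring and prefoldin, the HSF1-inducible genes had the larger median difference, but the gap to the CCT median rested on 1 WT mouse. Without WT mouse 2 the medians were -0.22 for the inducible genes, -0.21 for the CCT ring and -0.09 for prefoldin. Their median log2 fold change was -0.44, 18 of 19 were below 0, edgeR called 3, beside 0.693% of all tested genes, DESeq2 9, beside 4.2%, and 10 did not overlap between genotypes, beside 13.5% of all tested genes and 21.9% of those with a mean of 500 or more. Of the 19, 7 belong to the 14 genes picked in these libraries, and the other 12 had a median of -0.32, with 2 calls by edgeR, 2 by DESeq2 and 3 without overlap. These 12 were left over from the same choice and are not independent evidence. The 13 other members had a median of -0.17 with 0 edgeR calls, 6 at an unadjusted p under 0.05 and 4 by DESeq2, all 4 among the genes picked in these libraries, and 8 did not overlap, to be set beside the same shares and, for the unadjusted p, 10.2% of all tested genes and 17.6% of those with a mean of 500 or more. In the mean over the 19 inducible genes of the log2 difference from each gene's WT mean, the WT mice were at -0.19, 0.28 and -0.09 and the *Fmo5*-/- mice at -0.45, -0.47 and -0.46. The same mean over the 8 CCT genes was -0.06, 0.03 and 0.02 in WT and -0.23, -0.20 and -0.26 in *Fmo5*-/- mice. Both groups were thus lower in each knockout than in each WT mouse, and the WT mice were spread far more in the inducible genes. For prefoldin the means were 0.02, -0.10 and 0.08 in WT and -0.17, 0.07 and -0.02 in *Fmo5*-/- mice, which overlap. The inducible mean minus the CCT mean was -0.13, 0.24 and -0.11 in the WT mice and -0.22, -0.27 and -0.20 in the *Fmo5*-/- mice, so each knockout was below each WT mouse, with WT mice 1 and 3 much nearer to the knockouts than WT mouse 2. Every gene has the same weight in these means, also *Hspa1a* and *Hspa1b*, whose levels are uncertain, and the separation was not tested without them.

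**Figure D3:**
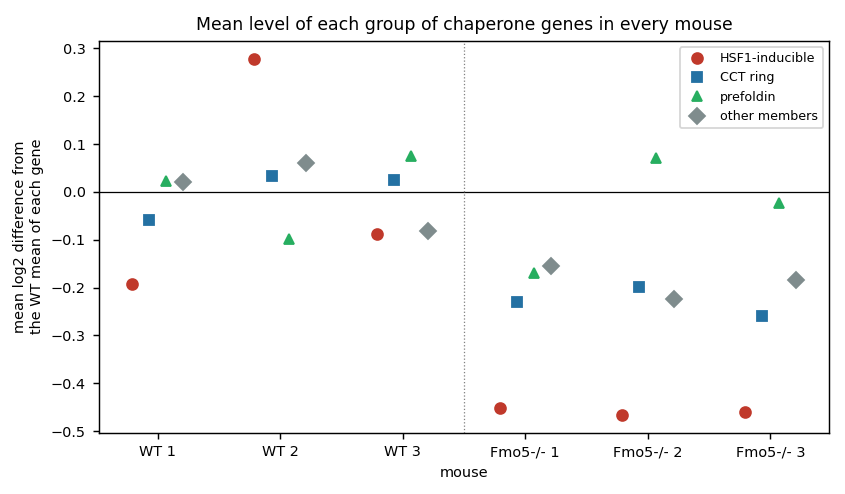
Mean over the genes of each group of the log2 difference from the gene's WT mean (y axis) in each of the 6 mice (x axis), with the dotted line between the genotypes. The HSF1-inducible mean is 0.28 in WT mouse 2 and -0.45 to -0.47 in the *Fmo5*-/- mice, while the CCT ring stays between -0.06 and 0.03 in WT mice.

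WT mouse 2 had the highest value of the 6 livers in 16 of the 19 inducible genes, 6 of the 8 CCT genes and 0 of the 4 prefoldin genes, where this held for 18.8% of all tested genes and 26.3% of those with a mean of 500 or more. It exceeded both other WT mice by more than 1.2-fold in 9 of the 19 and in 0 of the 8 CCT genes, beside 8.8% of all tested genes. Its level over the mean of the other WT mice had a median of 1.24 in the inducible genes, 1.04 in the CCT ring, 0.893 in prefoldin and 0.996 over all tested genes. Without WT mouse 2 the median log2 fold change of the inducible genes was -0.22, close to the -0.21 of the CCT ring, and that of prefoldin -0.09. The edgeR test then called 1 member, *Hsph1* (log2 fold change -0.79, adjusted p = 0.0392), beside 0.261% of all genes tested in that fit. *Hspa1b*, *Bag3*, *Hspb8*, *Dnajb1* and *Dnajb4* lost the largest share of their log2 fold change among the inducible genes, with *Dnajb1* at -0.21 and *Dnajb4* at -0.19. *Dnaja1* at -0.52, *Chordc1* at -0.49, *Stip1* at -0.47, *Hspa4l* at -0.43, *Hsp90aa1* at -0.49 and *Hspa8* at -0.38 remained below the CCT median but were not called.

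**Figure D4:**
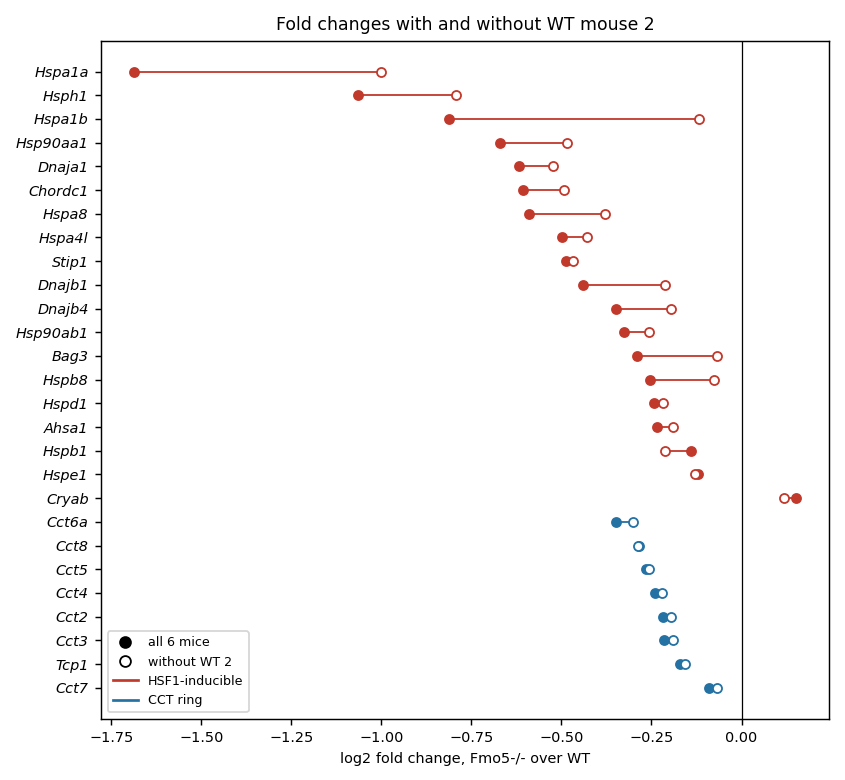
Log2 fold change, *Fmo5*-/- over WT (x axis), of the 19 HSF1-inducible and 8 CCT ring genes with all 6 mice (filled) and without WT mouse 2 (open). The CCT points move little, while *Hspa1b* goes from -0.81 to -0.12 and *Stip1* stays at -0.49 and -0.47.

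Other genes stood apart in the same WT liver. The cold-inducible RNA-binding protein gene *Cirbp*, known to move against the heat shock genes with body temperature, had 2088, 1123 and 1806 normalized counts in WT and 1961, 2359 and 1931 in *Fmo5*-/- liver, lowest in WT mouse 2. Its relative *Rbm3* had 1087, 1307 and 1526 in WT and 1630.2, 1573 and 1814 in *Fmo5*-/- liver and was not lowest there. Of the 7 markers of stellate and smooth muscle cells, *Acta2* had 74.1, 310.2 and 129 in WT and 92.2, 90.0 and 92.3 in *Fmo5*-/- liver, and *Myh11* 131, 339 and 125 in WT and 144, 128 and 150.2 in *Fmo5*-/- liver. Both smooth muscle genes were highest in WT mouse 2, while the summed level of the 7 markers was 189 to 209 CPM over the WT livers. The other markers of that list did not follow. *Reln* (2049), *Des* (212) and *Cygb* (303.5) were lowest of all livers in WT mouse 2. *Dcn* was lowest there among the WT livers, and *Lrat* lay between the other WT livers. *Acta2* and *Myh11* were singled out after their values were seen, and the part of temperature or smooth muscle in the chaperone levels of this liver was not tested.

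Promoter sequence was compared between the groups without use of the counts. Windows of 300 bases, 250 of them before the start of transcription, were read from RefSeq on GRCm38.p6, which held 35 of the 44 genes, and searched on both strands for 3 joined heat shock units, written GAANNTTCNNGAA or TTCNNGAANNTTC. Such a run was found in 4 of the 15 inducible genes with a window (*Chordc1*, *Hsph1*, *Hspd1* and *Hspe1*), in 0 of 7 CCT genes, in 0 of 3 prefoldin genes and in 1 of 10 other members (*Dnajb6*), beside 0.662% of the 27025 genes in the table. The shorter form of 2 units, GAANNTTC or TTCNNGAA, which every run of 3 contains, was found in 11 of 15 inducible, 3 of 7 CCT, 0 of 3 prefoldin and 2 of 10 other members, beside 17.0% of all genes. The inducible genes were grouped by their known regulation through HSF1, so a larger share among them is not an independent finding. Among them *Hspa8*, *Hsp90aa1*, *Hsp90ab1* and *Cryab* had no window. *Hspa1a* and *Hspa1b* held only the form of 2 units, and *Dnajb1*, *Hspa4l*, *Ahsa1* and *Stip1* held neither form. Every stretch with 3 units found in the members is shown, since *Chordc1*, which fell, and *Hsph1*, the lowest of the abundant members, carry it. Capitals mark the matched run, counted from -1 for the base before the start and +1 for the start.
*Chordc1* (chr9:18292260-18292288, plus strand): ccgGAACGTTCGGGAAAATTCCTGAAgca
*Hsph1* (chr5:149636280-149636308, minus strand): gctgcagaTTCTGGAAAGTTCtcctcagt
*Hspe1* and *Hspd1* (chr1:55088047-55088088, plus strand, read for *Hspe1*): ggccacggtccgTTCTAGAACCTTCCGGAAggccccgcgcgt
*Dnajb6* (chr5:29735844-29735872, plus strand): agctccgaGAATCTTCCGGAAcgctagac

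The *Chordc1* run lies at -4 to +19 and holds 3 overlapping matches in 23 bases, more than any other member. *Hsph1* and *Dnajb6* each have 2 starts in the table and hold the run in both windows, at +16 to +28 from 1 start of *Hsph1* and at -46 to -34 from 1 start of *Dnajb6*. *Hspe1* and *Hspd1* share 1 run on opposite strands, at -89 to -72 from the start of *Hspe1*, and for *Hspd1* it lies in the window of 1 of 2 starts, inside the gene, while the window at the annotated start of the gene has no match to either form. Members with such a run had widely different log2 fold changes. *Chordc1* and *Hsph1* had log2 fold changes of -0.61 and -1.06, while *Hspd1*, *Hspe1* and *Dnajb6* were at -0.24, -0.12 and -0.17, and *Stip1*, which fell, had no match to either form in its window. A match to these letters is a description of the window and not a measured binding site.

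Beyond the 44 members, 57 further folding genes were all tested, comprising co-chaperones, J proteins, helpers of the CCT ring and mitochondrial quality control. Their median log2 fold change was -0.09, with 43 below 0 and 14 above, where 64.0% of tested genes with a mean of 500 or more, a level that 48 of the 57 reached, were below 0. By edgeR 1 fell and 0 rose, and DESeq2 called 4 lower, beside 1.06% and 6.75% of genes with such a mean. Of these 4, *St13* and *Fkbp4* had also been picked in these libraries when the data were first described. At an unadjusted p under 0.05, 11 of the 57 were lower, beside 17.6% of genes with a mean of 500 or more and 10.2% of all tested genes. For 17 of the 57 every *Fmo5*-/- liver was below every WT liver, beside 21.9% and 13.5%. Whether the 57 differ from other genes in these shares was not tested. The gene that fell was *Cacybp*, whose product, calcyclin binding protein, is a partner of ubiquitin ligases, with 1932, 1843 and 1737 normalized counts in WT and 1251, 1378 and 1344 in *Fmo5*-/- liver (log2 fold change -0.47, edgeR adjusted p = 0.0339, DESeq2 3.68e-04). WT mouse 2 was not the highest for *Cacybp*, and the genotypes were well apart.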

How the data were processed

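mRNA libraries were made from liver and sequenced as single reads of 75 bases. The authors clipped adapters, mapped reads to mm10 with STAR 2.6.0c and deposited STAR's raw counts per gene. Reads mapped to several places and rows that name no gene, such as reads in no gene (6.86% to 8.63%), stayed out of library sizes and tests. The share mapped to several places was 11.8% to 13.1% in WT and 10.4% to 11.5% in *Fmo5*-/- libraries, highest in WT mouse 2. The part of this share in the results was not tested. The deposited comparison table holds, as signal, the authors' counts divided by DESeq2 size factors, used here only to check which counts were analysed, and their fold changes, standard errors, statistics and p-values, which were not used. That signal followed the counts of both strands, which were therefore tested, and the counts of 1 strand served as an alternative. No column was unmatched to a sample (0 left out).

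The 44 members were matched by symbol, then by Ensembl identifier. Positions come from GENCODE vM21 (41 identifiers of the same version, 3 of another). Members and lists were chosen with earlier results of these data known. Libraries were grouped by the genotype label. In R 4.3.3, genes were kept by filterByExpr (minimum count 10), scaled by TMM and tested two-sided with the robust quasi-likelihood test of edgeR 4.0.16 (biological coefficient of variation 15.0%), with Benjamini-Hochberg adjustment over 16734 genes and a threshold of 0.05. Normalized counts are counts over effective library size times its mean. Intervals are 95% confidence intervals, and the number of mice, 3 per genotype, limits the precision. An exact permutation test of 3 against 3 cannot go below p = 0.1 and was not used. Group means per mouse used log2 of the normalized count plus 0.5. Each p-value sets the genotype difference against the spread between mice, which is estimated with information shared over genes. Every member is named, and values per mouse are given for those called by edgeR or DESeq2, the *Hspa1* pair, *Hsf1*, *Hsf2* and the 4 others with the largest fold change; of other folding genes, those called by edgeR.

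Alternatives were the Wald test of DESeq2 1.42.0, RLE factors, TMM without the 20 most abundant genes, no filter except 1 count, a mean of 500 or more, 1 strand, and each library left out in turn. The fits were tested on simulated data whose spread followed the trend over genes and not the spread of each single gene. Recovery was required only of log2 fold changes larger than those of the called members.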

Additional observations from a re-analysis of the deposited data

How the results depend on the processing

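The choice of tool and filter moved the number of calls. With DESeq2, 16 members, 9 HSF1-inducible genes, 3 CCT ring and prefoldin genes and 4 other folding genes were called lower, and with no filter on low counts in edgeR 15, 11, 1 and 3, against 3, 3, 0 and 1; without the filter 896 of all 34200 genes were called lower (2.62%), against 116 of 16734. With each library left out in turn the counts ranged from 0 to 4 for the members, 0 to 3 for the inducible genes and 0 to 1 for the other folding genes, 0 members being called without WT mouse 1 or *Fmo5*-/- mouse 1. The median log2 fold change of the inducible genes ranged from -0.50 without WT mouse 3 to -0.22 without WT mouse 2, and that of the 13 other members from -0.24 without WT mouse 3 to -0.15. RLE factors, TMM without the 20 most abundant genes, the limit of 500 and 1 strand each left the 3 calls in place, and no setting called a member higher. Leaving out 1 library changed the sign only of members near 0, whose log2 fold change ranged from -0.25 (without WT mouse 1) to 0.0042 (without WT mouse 2) for *Hspa2*, from -0.026 (without WT mouse 2) to 0.087 for *Dnajc7*, from -0.0083 (without *Fmo5*-/- mouse 2) to 0.27 for *Cryab*, from -0.13 to 0.024 (without *Fmo5*-/- mouse 1) for *Pfdn1* and from -0.030 (without *Fmo5*-/- mouse 2) to 0.14 for *Pfdn5*. Over all members and settings, 481 of 522 results stayed on their side of the threshold, 28 gained a call and 13 lost one. RLE factors, TMM without the 20 most abundant genes and DESeq2 put the median of all genes at -0.0007, 0.0122 and 0.0229. The cause of these shifts was not tested. No paired analysis was possible because the mice are separate animals and the labels pair none of them across genotypes.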

Other observations

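*Fkbp5*, an HSP90 co-chaperone gene induced by glucocorticoids and 1 of the 57 further folding genes, was singled out after its values were seen. It had 865, 1563 and 872 normalized counts in the WT livers and 1307, 669 and 1190 in the *Fmo5*-/- livers, highest in WT mouse 2 and lowest in *Fmo5*-/- mouse 2, with overlap of the genotypes (log2 fold change -0.06, edgeR adjusted p = 0.941).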
